A study of Mus musculus with 12 samples.

Results

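The genes that copy DNA were followed through 4 cell populations on the way from a granulocyte and monocyte progenitor to the mature basophil in mouse bone marrow. The set holds 48 genes, taken by symbol, and each of the 48 had 1 row among the 14560 genes of the table. It covers the machinery from origin recognition to the packing of new DNA into chromatin. All populations came from the bone marrow of C57BL/6 mice (C57Bl/6J in the series text, 3 mice, described as independent triplicates). Each population was sorted in 2 rounds and has 3 libraries, 12 in all. The 3 progenitor populations were sorted as c-Kit+ CD34+ CD16/32+ cells without Sca1 (Sca1-) and without the lineage markers B220, CD3, Ter119, CD11b and Gr1. Among these, DN-GMPs were CDH1- FceRIa-, where CDH1 is E-cadherin and FceRIa the chain of the IgE receptor that binds IgE. Pro-BMPs were CDH1+ FceRIa-, and Pre-BMPs are labelled CDH1- FceRIa+. Basophils were B220- CD4- CD8a- Ter119- Sca1- c-Kit- cells with CD49b and FceRIa. The labels name no transgene, altered gene or treatment. They number the libraries of each population 1 to 3 without tying a number to an animal. The spread behind every p-value is that of libraries within their populations, pooled over the populations fitted and moderated over all genes.

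Replication starts where the origin recognition complex (ORC) sits on DNA. There Cdc6 and Cdt1 load the ring-shaped MCM2-7 helicase, which geminin (Gmnn) prevents once S phase has begun, and Cdc45 and the GINS complex then switch the loaded helicase on. Polymerase alpha with its primase lays down primers, the clamp loader RFC places the sliding clamp PCNA, and polymerases delta and epsilon extend the strands while RPA covers the single strands. In growing cells many of these genes are transcribed at the border of G1 and S phase under E2F factors, whereas genes of mitosis peak later, in G2 and M. Granulocyte progenitors of the marrow divide, and the mature granulocytes that leave it mostly do not.

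Between 29762981 and 42502405 reads fell on listed genes per library, and the lowest read count of a replication gene in any library was 93, for Orc1. Levels are given as reads per 1000000 of the authors' scaled library size (CPM), as mean ± SD over 3 libraries. Changes are differences of mean log2 values with their standard error (SE). A gene was called when limma's adjusted p, corrected over all 14560 genes, was under 0.05. The basophil marker list (6 genes) had a summed level of 89.8 to 118 CPM in DN-GMPs, where Fcer1a had no read, and of 36619 to 42848 CPM in basophils. The 6 markers of neutrophil progenitors moved the other way, with 19865 to 22825 CPM in DN-GMPs, 18744 to 20882 CPM in Pro-BMPs, then 5638 to 6846 CPM in Pre-BMPs, then 3324 to 4577 CPM in basophils. No gene of that list was without reads in any population. The 5 monocyte markers stood in sum at 1179 to 1463 CPM in DN-GMPs, at 11.2 to 31.4 CPM in Pre-BMPs and at 248 to 436 CPM in basophils. In basophils against DN-GMPs 1 monocyte marker was called higher and 4 lower, beside 23.2% of all genes in either direction. The 6 eosinophil markers were at 1.44 to 12.7 CPM in DN-GMPs, where Ear1, Ear2, Ear6 and Il5ra had no read, at 1564 to 2658 CPM in Pro-BMPs and at 1970 to 3380 CPM in Pre-BMPs. The 6 erythroid markers had 4.35 to 5.73 CPM in DN-GMPs and reached 198 to 272 CPM in Pre-BMPs. The 3 listed mast cell markers include Kit, the gene of the c-Kit used in sorting. Their sum was 216 to 335 CPM in DN-GMPs, where Tpsb2 had no read, 533 to 777 CPM in Pre-BMPs and 10.6 to 30.4 CPM in basophils. The 3 listed lymphoid markers were at 688 to 826 CPM in DN-GMPs and at 482 to 608 CPM in basophils. The 6 megakaryocyte markers stood in sum at 42.6 to 84.1 CPM in DN-GMPs and at 1191 to 1588 CPM in basophils, where Pf4 had no read. That higher sum did not reflect most of the list. Only 1 of the 6 was called higher in basophils against DN-GMPs and 3 were called lower, with a median log2 change of -4.83. The share of reads that overlapped no annotated feature also moved with the populations, from 6.65% to 7.77% in DN-GMPs to 11.2% to 12.6% in basophils. The part of other cell types and of these reads in the results was not tested. In these bulk samples, fewer cells in S phase and less RNA per cell cannot be told apart.

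The summed level of the 48 genes was lower in each later population. It was 8121, 8244 and 7679 CPM in the DN-GMP libraries, 6996, 7020 and 7007 CPM in Pro-BMPs, 6185, 6006 and 5319 CPM in Pre-BMPs, and 4809, 5531 and 4934 CPM in basophils. The basophil mean was thus 63.5% of the DN-GMP mean. The DN-GMP, Pro-BMP and Pre-BMP libraries did not overlap, while the highest basophil library lay above the lowest Pre-BMP library. For 31 of the 48 genes (64.6%) the mean was lower at each of the 3 steps, an order seen for 15.6% of all genes. The highest mean lay in DN-GMPs for 34 of the genes, and the lowest lay in basophils for 41. In basophils the median gene of the set kept 52.5% of its DN-GMP level, and the range ran from 13.3% for Gins1 to 180% for Rfc2. The map of all genes and libraries shows this drift role by role. It also shows the second DN-GMP library above the other DN-GMP libraries for Orc1, Mcm10, Pold1 and Chaf1a.

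**Figure D1:**
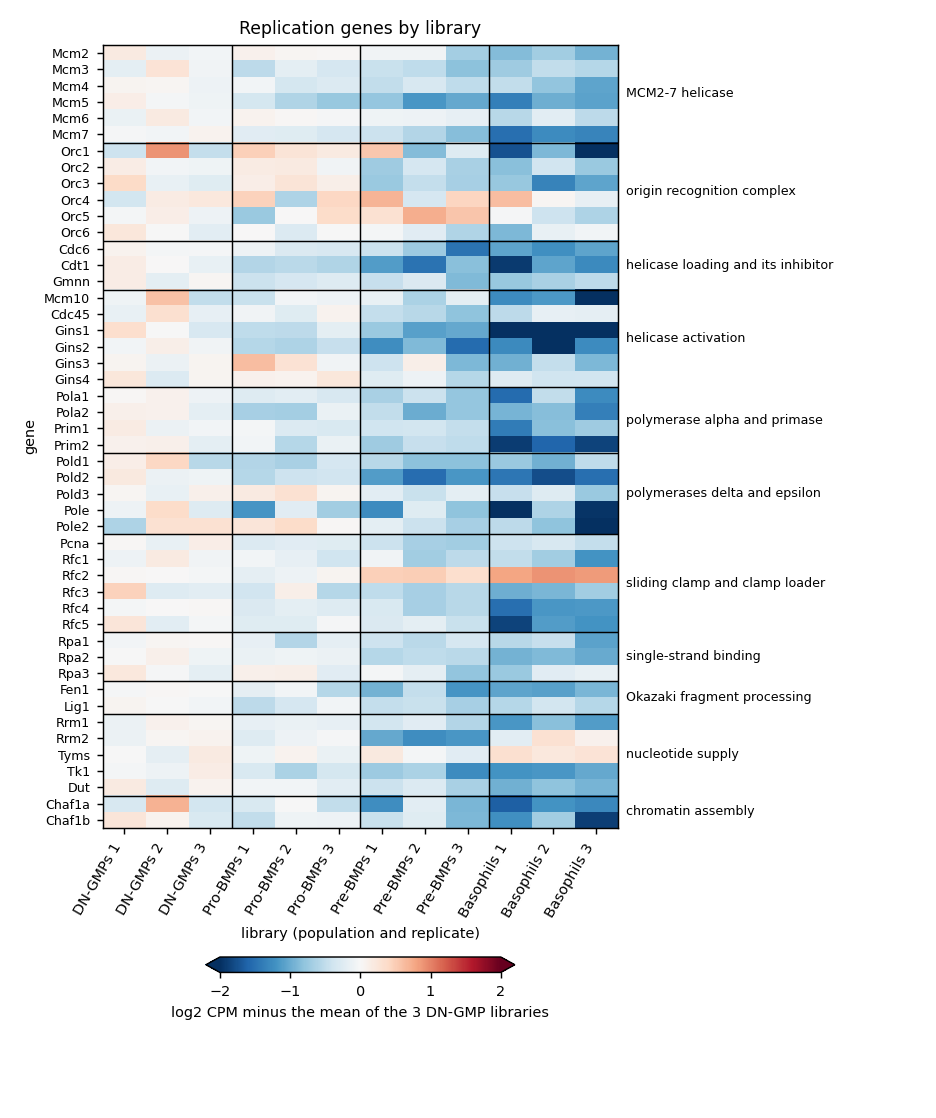
Log2 CPM of each of the 48 replication genes (rows, grouped by role) in each of the 12 libraries (columns), minus the mean of the 3 DN-GMP libraries; blue is lower, red is higher, and values beyond 2 are drawn at the end of the scale. Most rows turn blue towards the basophil libraries, while Rfc2 turns red and Rrm2 is darkest in the Pre-BMP libraries.

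Over the 4 populations, 41 of the 48 genes differed (limma's F-test), where 46.8% of all genes did. The 7 others were Orc4, Orc5, Orc6, Gins4, Pole2, Rpa3 and Tyms. At the first step, Pro-BMPs against DN-GMPs, limma called 0 of the 48 genes. Of all genes, 2% were called higher there and 0.536% lower. At an unadjusted p under 0.05 there were 10 (20.8%, beside 13.9% of all genes), all with lower estimates, and limma with voom weights called 1, Mcm5. The median log2 change of the set at this step was -0.21 and that of all genes 0.02, and 37 of the 48 estimates were below 0. Pold1 was called without DN-GMP replicate 3, and Mcm5 without Pro-BMP replicate 1, so that 1 gene was called in each of these fits.

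At the second step, Pre-BMPs against Pro-BMPs, 1 gene was called higher and 6 lower, beside 4.8% and 4.69% of all genes. The higher gene was Rfc2 and the lower ones were Rrm2, Pold2, Rpa2, Orc3, Orc2 and Pcna. The median change was -0.33, against 0.02 for all genes, and 44 of the 48 estimates were below 0. A fit without Pro-BMP replicate 1 called 4 genes, as did the fits that left out Pro-BMP replicate 2 and Pre-BMP replicate 3. At the third step, basophils against Pre-BMPs, 2 genes were called higher and 14 lower, beside 13.9% and 16.5% of all genes. The higher ones were Rrm2 and Rfc2, and the lower ones were Gins1, Orc1, Mcm10, Prim2, Rfc5, Orc5, Rfc4, Mcm7, Rrm1, Prim1, Mcm2, Dut, Rpa2 and Mcm6. The median change was -0.31, and that of all genes was -0.10.

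The longer comparisons gave more calls. Against DN-GMPs, Pre-BMPs had 1 gene called higher (Rfc2) and 25 lower, beside 12.2% and 9.69% of all genes, with a median change of -0.54 against 0.05 for all genes. Basophils had 1 called higher (again Rfc2) and 39 lower, beside 23.2% of all genes in either direction, with a median of -0.92 against -0.01. The 8 genes not called in basophils against DN-GMPs were Orc4, Orc5, Orc6, Cdc45, Gins4, Rpa3, Rrm2 and Tyms. Both comparisons use the same DN-GMP libraries and are not independent. Pre-BMP calls depended on single libraries: 13 genes were called without Pre-BMP replicate 3 and 17 without DN-GMP replicate 1. The basophil calls ranged from 36 to 39 when a library was left out, against 40 with all of them.

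**Figure D2:**
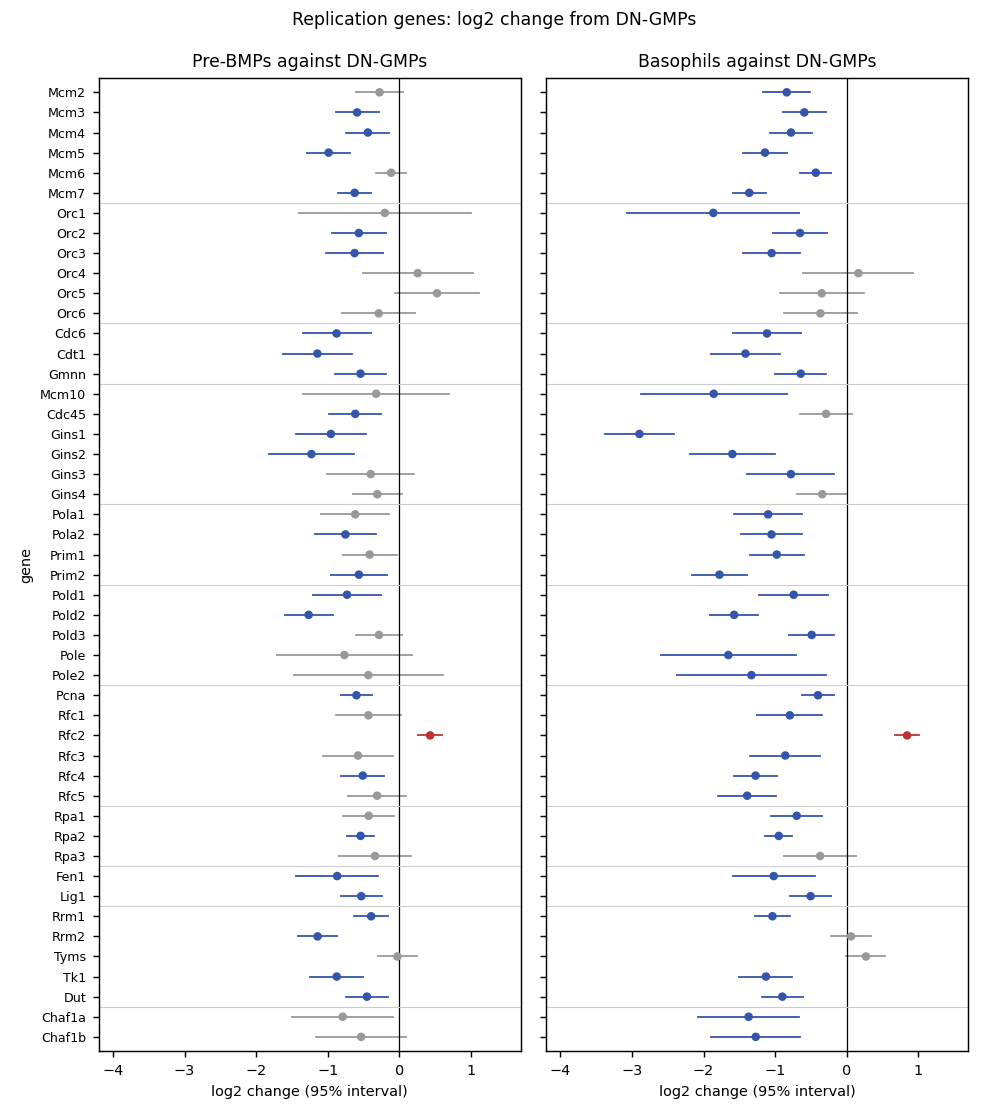
Log2 change (points) with its 95% interval (lines) of each replication gene in Pre-BMPs (left) and basophils (right) against DN-GMPs; blue genes were called lower, red higher, and grey not called. Points lie left of 0 for 45 genes in Pre-BMPs and for 44 in basophils, and Gins1 lies furthest left in basophils at -2.90.

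The choice of scale bears on the basophil comparisons and on the Pre-BMP calls. The authors' scaling makes basophil library sizes smaller than their read totals (ratios of 0.839 to 0.858) and those of the other populations larger (1.03 to 1.08). When each library was scaled to the sum of its listed genes instead, the median change of all genes shifted by -0.32 in basophils against Pre-BMPs and by -0.26 in basophils against DN-GMPs. Under quantile normalization the median of the single-gene shifts was -0.17 in Pre-BMPs against DN-GMPs and -0.11 in basophils against DN-GMPs. In basophils against Pre-BMPs that median was 0.08. Of all called genes, 45.6% were higher in basophils against Pre-BMPs as deposited and 26.6% under the sum scaling. Against DN-GMPs these shares were 49.98% and 38.7%. Under the sum scaling 27 replication genes were lower and 1 higher in basophils against Pre-BMPs, and 43 lower and 1 higher against DN-GMPs. More of all genes were then lower too, 26.2% and 29.4% in these comparisons, against 16.5% and 23.2% as deposited. In Pre-BMPs against DN-GMPs the replication genes called lower were 25 as deposited, 19 under the sum scaling and 21 under quantile normalization. The shares of all genes called lower there were 9.69%, 8.07% and 10.8% in the same order. Mcm4, Gmnn, Rrm1 and Dut lost that call under both alternatives, and Orc2 and Prim2 under the sum scaling only. Of all reads on listed genes, the 48 genes took between 1.04% and 1.09% in DN-GMPs, between 0.949% and 0.965% in Pro-BMPs, between 0.742% and 0.854% in Pre-BMPs and between 0.527% and 0.625% in basophils, and no 2 populations overlapped on that measure.

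With these library kits, which keep no strand, a read cannot be assigned to 1 of 2 genes that face each other at the same place. In the GENCODE M21 annotation 9 of the 48 genes share at least 10% of their exonic bases with another gene (Mcm7, Orc1, Orc2, Gins2, Rfc2, Rfc4, Rfc5, Fen1 and Chaf1a). Mcm7 also has 26.02% of its 50-base stretches, and Pcna 31.8%, in a near copy elsewhere (Gm5487 and Pcna-ps2). Their values are uncertain to that extent. Reads labelled ambiguous (3.63% to 4.14% of a library) or not uniquely aligned (8.51% to 12.1%) were held in rows apart from the genes. Such reads are not part of the gene values, and how many came from the 48 genes was not tested. Among the 38 genes with less sharing, 19 were called lower and 0 higher in Pre-BMPs against DN-GMPs, beside 9.69% and 12.2% of all genes. In basophils against DN-GMPs 30 were lower and 0 higher, beside 23.2% of all genes in either direction.

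The 6 ORC subunits, which mark origins, did not move as a group. Orc1, the subunit whose level follows the cell cycle most closely, had 12.6, 31.3 and 11.996 CPM in DN-GMPs, 23.3, 20.02 and 19.1 in Pro-BMPs, 24.3, 9.16 and 13.97 in Pre-BMPs, then 5.04, 9.00 and 2.15 in basophils. Every basophil library was below every other library, and the progenitors overlapped. Orc1 fell in basophils against Pre-BMPs (log2 change -1.66 ± 0.55 SE, limma adjusted p = 0.0394) and against DN-GMPs (-1.86 ± 0.55, limma adjusted p = 0.0158). Without DN-GMP replicate 2 or basophil replicate 3, the second of these had a limma adjusted p of up to 0.0653. The first was lost without Pre-BMP replicate 1 or 3 or basophil replicate 1 or 3, with a limma adjusted p of up to 0.145. It was also lost under quantile normalization, with voom weights and with the 2 populations fitted alone.

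Orc3, a core subunit, stood at 174, 188 and 172 CPM in Pro-BMPs and at 94.9, 114 and 100.2 CPM in Pre-BMPs, with no overlap. Its level fell at that step by 0.79 (log2, SE 0.18, limma adjusted p = 0.0191). Orc2, another core subunit, went from 59.8 ± 5.79 to 38.1 ± 5.49 CPM at the same step (log2 change -0.66 ± 0.17, limma adjusted p = 0.0351). Without Pro-BMP replicate 1 or 2 or Pre-BMP replicate 1 or 3 neither call held, with limma adjusted p of up to 0.118 for Orc2 and 0.0720 for Orc3. Their calls in Pre-BMPs against DN-GMPs were also lost, without DN-GMP replicate 1 or Pre-BMP replicate 1 or 3 for both and without any one DN-GMP library for Orc2 (limma adjusted p up to 0.113 for Orc2 and 0.1003 for Orc3). Orc2 shares 29.8% of its exonic bases with Nif3l1, which had 54.8 CPM in DN-GMPs and 57.0 CPM in Pre-BMPs. Orc5 ran against the set in Pre-BMPs, with 46.4, 62.5 and 55.7 CPM there and 36.7, 41.6 and 35.2 CPM in DN-GMPs. That difference was not called (log2 change 0.53 ± 0.27, limma adjusted p = 0.190). Orc5 then fell to 37.2, 28.5 and 24.5 CPM in basophils (-0.88 ± 0.27 against Pre-BMPs, limma adjusted p = 0.0278), a call that was lost without Pre-BMP replicate 2 or 3 or basophil replicate 2 or 3 (limma adjusted p up to 0.0975). Orc4 had means of 35.2 to 43.2 CPM and Orc6 of 52.3 to 65.9 CPM over the 4 populations, with overlapping libraries and no call in any comparison.

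The loaders and their inhibitor were all lower in the 2 FceRIa+ populations. Cdt1, which brings the MCM ring to ORC, had 118, 107 and 96.0 CPM in DN-GMPs, 70.9, 73.4 and 70.4 in Pro-BMPs, 49.3, 38.1 and 59.5 in Pre-BMPs, then 28.4, 51.0 and 44.0 in basophils. The first 3 populations did not overlap in Cdt1, and Pre-BMPs and basophils did. Its change against DN-GMPs was -1.14 ± 0.22 in Pre-BMPs (limma adjusted p = 0.00357) and -1.41 ± 0.22 in basophils (limma adjusted p = 0.000301). At the first step Cdt1 had an estimate of -0.57 ± 0.22 that was not called (limma adjusted p = 0.255). Cdc6, the ATPase that acts with ORC, went from 119 ± 5.21 CPM in DN-GMPs to 68.0 ± 23.3 in Pre-BMPs and 55.2 ± 3.81 in basophils. Geminin, which binds Cdt1 and blocks reloading, went from 107 ± 12.6 to 74.2 ± 15.2 and 68.3 ± 5.84 CPM. Both were called lower in Pre-BMPs and basophils against DN-GMPs, and the geminin call in Pre-BMPs was lost without DN-GMP replicate 1 or 3 or Pre-BMP replicate 1 or 3 (limma adjusted p up to 0.1204). With the 2 populations fitted alone, Cdc6 in Pre-BMPs had a limma adjusted p of 0.0571. Per kilobase of exon, the ratio of Cdt1 to geminin was 0.470 ± 0.0626 in DN-GMPs, 0.398 ± 0.0250 in Pro-BMPs, 0.327 ± 0.142 in Pre-BMPs, then 0.279 ± 0.0690 in basophils. The ratios of neighbouring populations overlapped, and no test was run on them.

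The MCM2-7 ring is the engine of the replicative helicase. The summed level of its 6 genes went from 2811 ± 126 CPM in DN-GMPs to 2458 ± 90.6, 2064 ± 192 and 1644 ± 146 CPM, which is 58.5% of the start. All 6 were called lower in basophils against DN-GMPs, beside 23.2% of all genes. In Pre-BMPs against DN-GMPs 4 of the 6 (Mcm3, Mcm4, Mcm5 and Mcm7) were called lower, beside 9.69% of all genes. Mcm7 had 419, 410 and 443 CPM in DN-GMPs, 361, 359 and 335 in Pro-BMPs, 313, 283 and 234 in Pre-BMPs, then 149, 177 and 170 in basophils, with no overlap between any 2 populations. Its change was -1.36 ± 0.11 in basophils against DN-GMPs (limma adjusted p = 1.49e-06) and -0.74 ± 0.11 against Pre-BMPs (limma adjusted p = 0.000355). Mcm5 showed most of its difference early, at 545, 482 and 467 CPM in DN-GMPs, 390, 329 and 295 in Pro-BMPs, 292, 222 and 243 in Pre-BMPs, then 192, 252 and 237 in basophils. Pro-BMP libraries of Mcm5 lay below all DN-GMP libraries (log2 change -0.57 ± 0.14, limma adjusted p = 0.0609, not called), and Pre-BMP and basophil libraries overlapped.

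Mcm6 and Mcm2 showed the reverse timing. Mcm6 had 761 ± 89.2 CPM in DN-GMPs, 772 ± 24.6 in Pro-BMPs and 700 ± 18.9 in Pre-BMPs, with DN-GMP libraries that overlapped those of both others, and 516, 654 and 525 CPM in basophils. Mcm2 likewise had 383 ± 42.9, 395 ± 8.95 and 321 ± 72.2 CPM in the progenitors and 210, 235 and 198 CPM in basophils. Both fell in basophils against Pre-BMPs (Mcm2 -0.56 ± 0.15 and Mcm6 -0.32 ± 0.10, limma adjusted p = 0.0147 and 0.0289). The Mcm2 call was lost without Pre-BMP replicate 1 or 2 (limma adjusted p up to 0.0638) and the Mcm6 call without Pre-BMP replicate 1 or 2 or basophil replicate 1 or 3 (limma adjusted p up to 0.109). Mcm3 had 489 ± 83.2 CPM in DN-GMPs and 322 ± 25.6 CPM in basophils, and Mcm4 had 257 ± 16.2 and 151 ± 29.5 CPM. The Mcm4 call in Pre-BMPs was lost when any one of the 6 libraries compared was left out (limma adjusted p up to 0.117). Per kilobase of all annotated exons, Mcm6 was the highest and Mcm2 the lowest subunit in every population. They were 2.96 times apart in DN-GMPs and 3.93 times apart in basophils. The low rank of Mcm2 depends on its merged exonic length of 6956 bases, against 3589 for Mcm4. In CPM, Mcm2 lay above Mcm4 in DN-GMPs and in basophils. Mcm6 and Mcm2 thus lay further apart in basophils than in DN-GMPs, which was not tested.

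Promoter sequences are shown for replication genes whose window holds an E2F motif upstream of the start. RefSeq promoter windows (GRCm38.p6, 250 bases before to 50 bases after the start) were at hand for 40 of the 48 genes, in 48 windows. The E2F letters searched were TTTCCCGC and TTTGGCGC on both strands, and neither of these 2 words contains the other or another word searched. They were found in 13 of the 48 windows (27.1%), against 1.56% of all 32851 windows of 300 bases and 3.02% of the 12421 windows of genes in the table. The 13 genes were Mcm3, Mcm5, Mcm6, Mcm7, Cdc6, Cdt1, Orc3, Gins3, Pola1, Pold1, Pold3, Pole2 and Rfc3. Each sequence below is written 5′ to 3′ on the gene's strand, with the match in capitals.
Mcm5, chr8:75109349-75109378, plus strand: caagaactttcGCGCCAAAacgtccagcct
Mcm6, chr1:128359797-128359826, minus strand: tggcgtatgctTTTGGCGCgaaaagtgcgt
Mcm6, chr1:128359734-128359763, minus strand: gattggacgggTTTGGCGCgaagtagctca
Mcm7, chr5:138172030-138172059, minus strand: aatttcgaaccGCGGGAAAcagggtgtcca
Cdc6, chr11:98908002-98908031, plus strand: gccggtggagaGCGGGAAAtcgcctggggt
Orc3, chr4:34614965-34614994, minus strand: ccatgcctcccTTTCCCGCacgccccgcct
Gins3, chr8:95633507-95633536, plus strand: gcgagtgcggcGCGGGAAAgcgagtttgaa
Pola1, chrX:93632275-93632304, minus strand: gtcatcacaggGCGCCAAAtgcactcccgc

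All 13 genes with these letters were called lower in basophils against DN-GMPs, beside 23.2% of all genes, with changes from -1.41 to -0.43 and a median of -1.05. The calls of 4 of the 13 (Gins3, Pold1, Pold3 and Pole2) were lost when some single library was left out. The 27 genes with a window but no such letters had a median of -0.90, and 20 of them were called lower. The 2 ranges overlapped, and no test was run on them. In Pre-BMPs against DN-GMPs the medians were -0.62 and -0.45. The CCAAT box (CCAAT, either strand) stood in 54.2% of the windows of the set. It stood in 37.4% of all windows and in 38.1% of those of genes in the table. The cell cycle homology region (TTTGAA, either strand) stood in 10.4% of the windows of the set. That was near the 12.3% of windows of genes in the table, and 17.9% of all windows held it. A match describes letters and not a bound site.

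**Figure D3:**
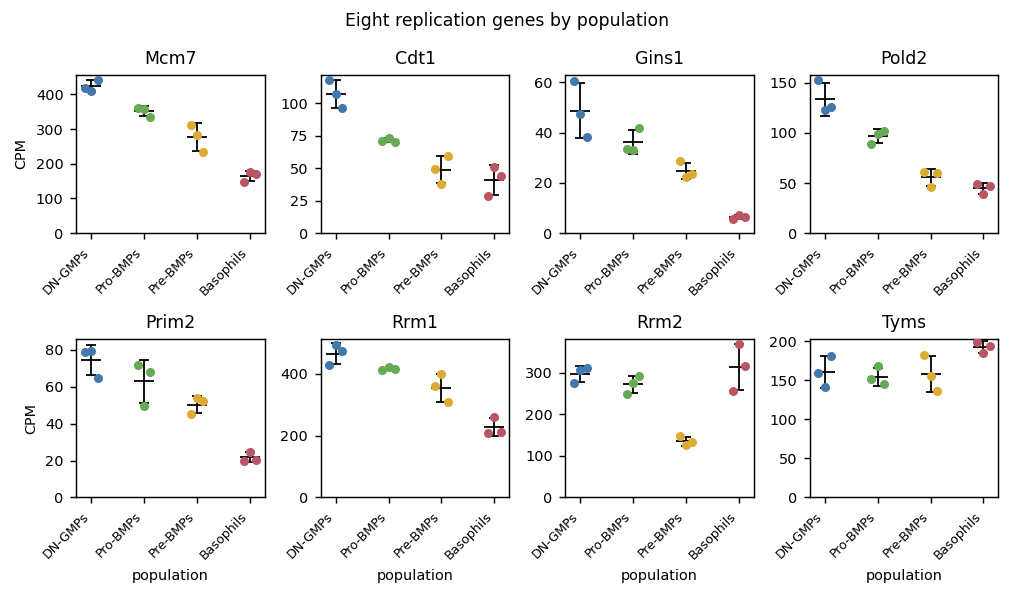
CPM (vertical axes, starting at 0) of 8 replication genes in the 4 populations; each point is a library, and the black bar shows mean ± SD over 3 libraries. Mcm7, Gins1 and Prim2 are lowest in basophils, Cdt1 and Pold2 are already low in Pre-BMPs, and Rrm2 is lowest in Pre-BMPs at 125 to 147 CPM.

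Helicase activation held the largest fall of the set. Gins1, a subunit of the GINS complex that joins Cdc45 and MCM into the active helicase, had 60.4, 47.6 and 38.3 CPM in DN-GMPs and 33.6, 33.3 and 41.9 in Pro-BMPs. It had 28.6, 22.5 and 23.5 CPM in Pre-BMPs, then 5.71, 7.38 and 6.30 in basophils. The basophil libraries stood far below all others, and only DN-GMPs and Pro-BMPs overlapped. The change was -2.90 ± 0.22 in basophils against DN-GMPs (limma adjusted p = 1.2e-06) and -1.94 ± 0.22 against Pre-BMPs (limma adjusted p = 6.32e-05). Gins2 went from 52.5 ± 3.55 CPM to 35.9 ± 2.10, 22.8 ± 5.20 and 18.2 ± 6.34 CPM (-1.60 ± 0.27 in basophils against DN-GMPs, limma adjusted p = 0.000573). Gins2 shares 67.3% of its exonic bases with Gse1, which had 12.999 ± 2.06 CPM in DN-GMPs and 39.96 ± 5.58 CPM in basophils.

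The other members of the same complex moved less. Gins3 had 28.2 ± 1.99 CPM in DN-GMPs and 16.6 ± 3.09 CPM in basophils (-0.78 ± 0.28, limma adjusted p = 0.0379), a call that was lost without any one DN-GMP library or without basophil replicate 1 or 3 (limma adjusted p up to 0.104). Gins4 had 78.2 ± 13.004 CPM in DN-GMPs and 61.2 ± 3.41 CPM in basophils and was not called (-0.34 ± 0.16, limma adjusted p = 0.0969). Per kilobase of exon, Gins1 reached 0.560 ± 0.1201 of the Gins4 level in DN-GMPs, 0.381 ± 0.0277 in Pro-BMPs, 0.355 ± 0.0667 in Pre-BMPs, then 0.0946 ± 0.0168 in basophils, so that the basophil ratios lay apart from all others. Cdc45, the helicase cofactor, was lowest in Pre-BMPs, at 88.1, 83.8 and 70.2 CPM against 111, 153 and 109 CPM in DN-GMPs (-0.62 ± 0.16, limma adjusted p = 0.0210). This call was lost without DN-GMP replicate 2 or Pre-BMP replicate 3 (limma adjusted p up to 0.0842). In basophils Cdc45 had 85.2, 110.2 and 109 CPM, with no call against DN-GMPs or Pre-BMPs. Mcm10, which helps to activate the helicase, had 73.8, 118 and 55.6 CPM in DN-GMPs and 32.8, 35.6 and 8.72 CPM in basophils (-1.86 ± 0.46, limma adjusted p = 0.00668). Without DN-GMP replicate 2 this was -1.56 (limma adjusted p = 0.0295), and without basophil replicate 3, the lowest library, it was -1.20 (limma adjusted p = 0.00706). Its call against Pre-BMPs (-1.53 ± 0.46) was lost without Pre-BMP replicate 1 or 3 (limma adjusted p up to 0.0795), and without basophil replicate 3 it was -0.88 (limma adjusted p = 0.0454).

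The primer-making complex fell as a whole. All 4 genes were called lower in basophils against DN-GMPs, beside 23.2% of all genes. The summed level went from 487 ± 37.9 to 226 ± 45.3 CPM (46.5%). Prim2, the large primase subunit, had 79.1, 79.7 and 65.0 CPM in DN-GMPs, 71.6, 49.8 and 67.9 in Pro-BMPs, 45.1, 53.7 and 52.2 in Pre-BMPs, then 19.9, 24.8 and 20.5 in basophils. Its basophil libraries lay below all others (-1.21 ± 0.18 against Pre-BMPs, limma adjusted p = 0.000387), and its largest fall came at that last step. Prim1, the catalytic primase subunit, went from 113 ± 11.73 to 84.6 ± 3.30 CPM in Pre-BMPs and 58.4 ± 13.7 in basophils. Its call in basophils against Pre-BMPs was lost without any one Pre-BMP library or without basophil replicate 1 (limma adjusted p up to 0.0840). Pola1, the catalytic subunit of polymerase alpha, had 153 ± 9.39 CPM in DN-GMPs and 74.8 ± 29.5 in basophils. Pola2, its accessory subunit, had 146 ± 16.4 and 71.2 ± 12.96 CPM. Among them, Pola2 and Prim2 were also called lower in Pre-BMPs against DN-GMPs, and both calls were lost without either of the first 2 DN-GMP libraries or without Pre-BMP replicate 2 or 3 (limma adjusted p up to 0.0692 and 0.130). The Prim2 call was also lost without Pre-BMP replicate 1.

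Of the extending polymerases, Pold2 changed most between progenitors. Pold2, an accessory subunit of polymerase delta, had 153, 122 and 126 CPM in DN-GMPs, 89.4, 99.5 and 102 in Pro-BMPs, 61.1, 46.3 and 59.6 in Pre-BMPs, then 49.1, 38.8 and 46.9 in basophils. The first 3 populations did not overlap. Its fall of 0.81 on the log2 scale from Pro-BMPs to Pre-BMPs (SE 0.15, limma adjusted p = 0.00718) held in every fit that left out a library. Pold1, the catalytic subunit, had 217, 263 and 134 CPM in DN-GMPs and 117, 101 and 138 CPM in basophils. These overlapped, although the gene was called (-0.74 ± 0.22, limma adjusted p = 0.0159), and the call was lost without DN-GMP replicate 1 or 2 or basophil replicate 2 (limma adjusted p up to 0.0633). The Pold1 call in Pre-BMPs against DN-GMPs was lost without DN-GMP replicate 1 or 2 or Pre-BMP replicate 2 or 3 (limma adjusted p up to 0.108). Pold3 went from 102 ± 8.82 to 72.9 ± 12.02 CPM in basophils, a call lost without DN-GMP replicate 3 or basophil replicate 3 (limma adjusted p up to 0.0613).

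Pole, the catalytic subunit of polymerase epsilon, had 70.0, 97.1 and 63.1 CPM in DN-GMPs and 14.4, 49.3 and 19.4 CPM in basophils. Basophil replicate 2 stood above the other basophil libraries in Pole, and the change was -1.65 ± 0.43 (limma adjusted p = 0.00835). Pole2, its second subunit, had 22.0, 41.7 and 41.8 CPM in DN-GMPs and 23.4, 19.3 and 5.33 CPM in basophils. These overlapped, and the Pole2 call (-1.33 ± 0.47, limma adjusted p = 0.0380) was lost without DN-GMP replicate 2 or 3 or basophil replicate 3 (limma adjusted p up to 0.111). Without that basophil library the change of Pole2 was -0.67.

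The clamp loader split. RFC is a ring of 5 subunits that opens PCNA around DNA. Rfc4 had 98.8, 103 and 103 CPM in DN-GMPs and 35.9, 45.2 and 45.8 CPM in basophils (-1.27 ± 0.14, limma adjusted p = 1.77e-05). Its call in Pre-BMPs against DN-GMPs was lost without DN-GMP replicate 3 or Pre-BMP replicate 2 or 3 (limma adjusted p up to 0.0772). Rfc5 had 254, 186 and 210 CPM in DN-GMPs, 176, 188 and 157 in Pre-BMPs, then 59.4, 98.5 and 93.9 in basophils, with its fall at the last step (-1.08 ± 0.18, limma adjusted p = 0.0011). Rfc1, the large subunit, and Rfc3 were called lower only against DN-GMPs and only in basophils, at 62.0 ± 14.9 against 106 ± 11.8 CPM and at 38.4 ± 4.08 against 71.2 ± 21.2 CPM.

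Rfc2 rose. It had 325, 322 and 312 CPM in DN-GMPs, 282, 297 and 332 in Pro-BMPs, 443, 449 and 404 in Pre-BMPs, then 550.2, 597 and 578 in basophils. Every Pre-BMP library lay above every DN-GMP and Pro-BMP library, and every basophil library lay above all of those. The rise was 0.51 ± 0.07 from Pro-BMPs to Pre-BMPs (limma adjusted p = 0.00154) and 0.85 ± 0.07 from DN-GMPs to basophils (limma adjusted p = 3.89e-06). From Pre-BMPs to basophils it was 0.41 ± 0.07 on the authors' scale (limma adjusted p = 0.00151), but 0.09 when libraries were scaled to their listed genes (adjusted p = 0.403 by limma), and it turned to -0.03 under quantile normalization. Per kilobase of exon, Rfc2 was 1.16 ± 0.0910 times the mean of Rfc3, Rfc4 and Rfc5 in DN-GMPs, 1.28 ± 0.101 times in Pro-BMPs, 2.13 ± 0.134 times in Pre-BMPs, then 4.94 ± 0.673 times in basophils. These ratios do not depend on the scaling of a library.

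A neighbour shares bases with Rfc2. Rfc2 (chr5:134581366-134601805, plus strand, GENCODE M21) ends inside Lat2 (chr5:134600022-134615025, minus strand), and 952 of its exonic bases (15.1%) are also exonic in Lat2. Lat2, which encodes an adaptor that signals below immune receptors such as the IgE receptor, had 19.6, 22.2 and 22.4 CPM in DN-GMPs, 25.1, 13.1 and 17.0 in Pro-BMPs, 117, 83.0 and 108 in Pre-BMPs, then 522, 495 and 491 in basophils. Lat2 and Rfc2 were thus both higher in the same populations, and the part of Lat2 reads in the Rfc2 values was not tested.

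**Figure D4:**
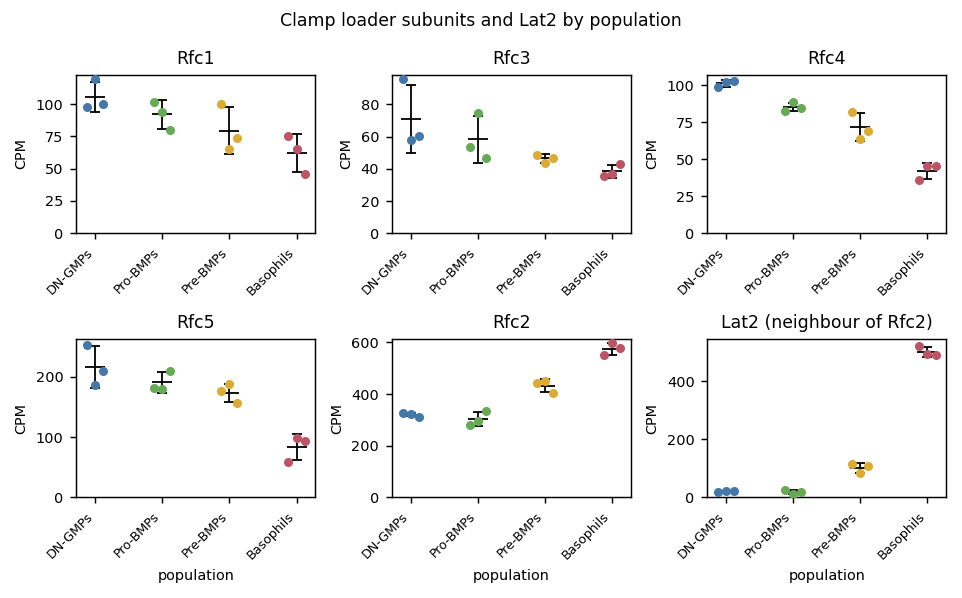
CPM (vertical axes, starting at 0) of the 5 clamp loader subunits and of Lat2, whose exons share bases with those of Rfc2, in the 4 populations; points are libraries and black bars are mean ± SD over 3 libraries. Rfc1, Rfc3, Rfc4 and Rfc5 have their lowest mean in basophils, whereas Rfc2 and Lat2 are highest there, Rfc2 at 550.2 to 597 CPM.

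The clamp itself was steadier. Pcna had 234, 208 and 254 CPM in DN-GMPs, 191, 199 and 196 in Pro-BMPs, 171, 146 and 143 in Pre-BMPs, then 173, 186 and 167 in basophils. DN-GMPs, Pro-BMPs and Pre-BMPs did not overlap, and basophils lay among the Pre-BMPs or above them. Pcna was lower in basophils than in DN-GMPs by -0.40 ± 0.10 (limma adjusted p = 0.00687) and in Pre-BMPs by -0.60 ± 0.10 (limma adjusted p = 0.00154). The step from Pro-BMPs to Pre-BMPs (-0.35 ± 0.10, limma adjusted p = 0.0496) was lost without any one Pro-BMP library or without Pre-BMP replicate 2 or 3 (limma adjusted p up to 0.167). It was also lost under quantile normalization, the sum scaling, a block for the replicate number and the 2 populations fitted alone.

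Single-strand binding protein RPA has 3 subunits. Rpa2 had 175, 190 and 166 CPM in DN-GMPs, 162, 166 and 163 in Pro-BMPs, 119, 125 and 122 in Pre-BMPs, then 91.5, 95.8 and 87.9 in basophils. No 2 populations overlapped, and the spread within each was small. Rpa2 fell from Pro-BMPs to Pre-BMPs (-0.43 ± 0.09, limma adjusted p = 0.0101) and again to basophils (-0.41 ± 0.09, limma adjusted p = 0.00404). Rpa1, the large DNA-binding subunit, went from 178 ± 6.41 CPM in DN-GMPs to 112 ± 24.0 in basophils (-0.70 ± 0.16, limma adjusted p = 0.00468). Rpa3, the small subunit, had 63.4 ± 8.97 and 49.5 ± 10.2 CPM and was not called.

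Lagging-strand fragments are trimmed by Fen1 and joined by Lig1. Lig1 had 152, 145 and 140 CPM in DN-GMPs, 104, 107 and 91.7 in Pre-BMPs, then 97.5, 113 and 98.2 in basophils, so that Pre-BMPs and basophils overlapped and both lay below DN-GMPs. The call in Pre-BMPs (-0.53 ± 0.13, limma adjusted p = 0.0128) was lost without Pre-BMP replicate 3 (limma adjusted p = 0.0540). Fen1 had 15.6 ± 0.248 CPM in DN-GMPs and 7.72 ± 0.515 in basophils, and 84.2% of its exonic bases are shared with other genes, Gm10143 and Tmem258. Its call in Pre-BMPs was lost without any one DN-GMP library or without Pre-BMP replicate 1 or 3 (limma adjusted p up to 0.127).

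Nucleotide supply held the one gene of the set that was called lower at the second step and higher at the third. Rrm2 is the small subunit of ribonucleotide reductase, the enzyme that turns ribonucleotides into the building blocks of DNA, and Rrm1 is its large subunit. Rrm2 had 275, 306 and 310.0 CPM in DN-GMPs, 249, 276 and 290.5 in Pro-BMPs, 147, 125 and 133 in Pre-BMPs, then 256, 368 and 315 in basophils. Every Pre-BMP library lay below every other library, and basophils overlapped both earlier populations. Rrm2 fell by 1.01 on the log2 scale from Pro-BMPs to Pre-BMPs (SE 0.13, limma adjusted p = 0.00054) and rose by 1.20 ± 0.13 from Pre-BMPs to basophils (limma adjusted p = 3.36e-05). Both values rest on the same 3 Pre-BMP libraries, and both calls held in all 13 alternative fits. Under the sum scaling the rise was 0.88. Basophils and DN-GMPs did not differ detectably (0.06 ± 0.13, 95% interval -0.22 to 0.34, limma adjusted p = 0.717).

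Rrm1 took another course, with 427, 492 and 475 CPM in DN-GMPs, 413, 421 and 414 in Pro-BMPs, 360, 398 and 308 in Pre-BMPs, then 207, 261 and 213 in basophils. Its basophil libraries were below all others (-0.64 ± 0.11 against Pre-BMPs, limma adjusted p = 0.00107). The call in Pre-BMPs against DN-GMPs was lost without DN-GMP replicate 2 or 3 or Pre-BMP replicate 1 or 3 (limma adjusted p up to 0.0990). Per kilobase of exon, the ratio of Rrm2 to Rrm1 was 2.54 ± 0.0615 in DN-GMPs, 2.60 ± 0.197 in Pro-BMPs, 1.53 ± 0.246 in Pre-BMPs, then 5.46 ± 0.504 in basophils. Basophil ratios of 4.90, 5.59 and 5.88 were above all others and Pre-BMP ratios of 1.62, 1.25 and 1.71 below all others. The RefSeq window of Rrm2 holds no E2F letters and 1 CCAAT box, shown here because this gene departs from the rest.
Rrm2, chr12:24708193-24708219, plus strand: gtcagcggcgtCCAATgggaggcgagg

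Tyms, which makes thymidylate, was called in no comparison, with 159, 141 and 181 CPM in DN-GMPs and 199, 185 and 194 in basophils (0.27 ± 0.12, limma adjusted p = 0.0963, not called). The basophil libraries of Tyms all lay above those of DN-GMPs. Tk1, the thymidine kinase that salvages thymidine, had 116, 112 and 133 CPM in DN-GMPs, 97.0, 77.7 and 93.6 in Pro-BMPs, 72.6, 77.0 and 50.2 in Pre-BMPs, then 52.4, 53.5 and 58.9 in basophils. It fell by 0.87 (SE 0.17, limma adjusted p = 0.00363) in Pre-BMPs and by 1.13 (SE 0.17, limma adjusted p = 0.000221) in basophils against DN-GMPs. Dut, which breaks down dUTP, went from 204 ± 31.1 to 149 ± 19.7 in Pre-BMPs and 109 ± 6.32 CPM in basophils. Its call in Pre-BMPs against DN-GMPs was lost without DN-GMP replicate 1 or 3 or Pre-BMP replicate 1 or 3 (limma adjusted p up to 0.119). Its call in basophils against Pre-BMPs was lost without Pre-BMP replicate 1 or 2 or basophil replicate 1 or 3 (limma adjusted p up to 0.0981).

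The histone chaperone CAF-1, which deposits histones behind the fork, was measured through Chaf1a and Chaf1b. Chaf1b had 113, 101 and 77.8 CPM in DN-GMPs and 40.9, 59.3 and 26.04 in basophils (-1.27 ± 0.28, limma adjusted p = 0.00345). Chaf1a had 53.4, 109 and 51.7 CPM in DN-GMPs and 21.5, 29.4 and 27.5 in basophils (-1.37 ± 0.32, limma adjusted p = 0.0046), and without DN-GMP replicate 2 the change was -1.02 (limma adjusted p = 0.0157). Neither was called in Pre-BMPs, where Chaf1a had 28.4, 57.6 and 35.5 CPM and overlapped DN-GMPs. The 2 subunits together had 40.5% of their DN-GMP level in basophils, and 52.5% of the exonic bases of Chaf1a are shared with Ubxn6.

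**Figure D5:**
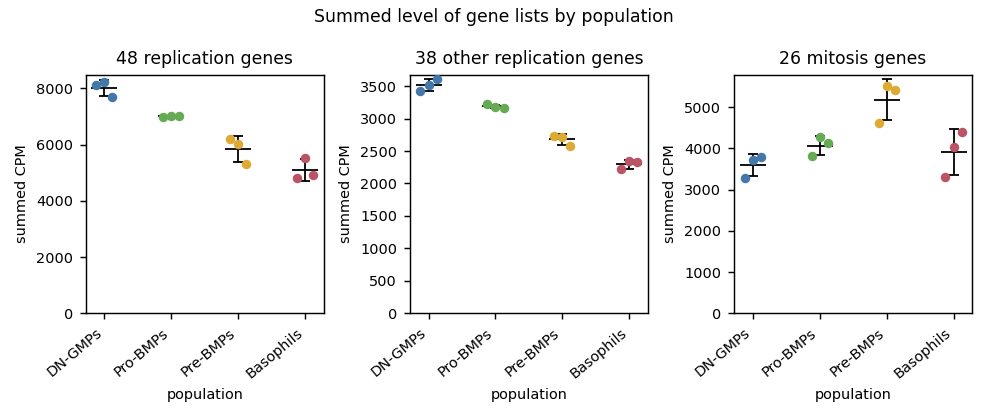
Summed CPM (vertical axes, starting at 0) of the 48 replication genes, 38 other replication genes and 26 mitosis genes; points are libraries and black bars are mean ± SD over 3 libraries. The first 2 lists are lower in each later population, whereas the mitosis list is highest in Pre-BMPs at 5181 ± 487 CPM.

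A list of 38 other replication genes, with fork protection factors, alternative helicases and further nucleotide enzymes, was also lower in sum, at 3517 ± 91.8 CPM in DN-GMPs and 2299 ± 69.4 CPM in basophils (65.4%). No gene of it was called at the first step, where 2% of all genes were higher and 0.536% lower. At the second step 5 were lower and 0 higher, beside 4.69% and 4.8% of all genes. At the third step 18 were lower and 5 higher, beside 16.5% and 13.9% of all genes. In Pre-BMPs against DN-GMPs 10 were lower and 1 higher, beside 9.69% and 12.2% of all genes. In basophils 20 were lower and 5 higher, beside 23.2% of all genes each way, with a median change of -0.90. Nucleotide enzymes stood at both ends. Dctd, which makes dUMP from dCMP, fell from 50.6 ± 18.5 to 6.05 ± 0.318 CPM. Rrm2b, the other small subunit of ribonucleotide reductase, rose from 3.81 ± 1.85 to 26.8 ± 9.88 CPM (2.87 ± 0.40, limma adjusted p = 0.000129). Samhd1, which breaks down deoxynucleotides, rose from 44.7 ± 7.44 to 194 ± 26.3 CPM. Mcm8, a helicase related to the MCM2-7 subunits, fell from 31.0 ± 3.84 to 5.99 ± 3.28 CPM. Exo1, a repair exonuclease, was lower in Pre-BMPs than in DN-GMPs (33.3 ± 7.87 against 63.6 ± 10.9 CPM). Tipin, a fork protection factor, fell from Pro-BMPs to Pre-BMPs (-0.57 ± 0.11, limma adjusted p = 0.00751).

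Regulators of the G1 to S step (23 genes) had calls in both directions. At the first step 1 was called higher and 0 lower, beside 2% and 0.536% of all genes. At the second 5 were higher and 1 lower, beside 4.8% and 4.69%. At the third 7 were higher and 2 lower, beside 13.9% and 16.5%. Against DN-GMPs 5 were higher and 4 lower in Pre-BMPs, beside 12.2% and 9.69% of all genes. In basophils 7 were higher and 4 lower, near the 23.2% of all genes called each way. E2f8, an atypical E2F that represses, had 36.7 ± 6.39, 67.5 ± 17.9, 133 ± 10.4 and 184 ± 28.1 CPM along the 4 populations. E2f2, an activating E2F, stood at 2.95 to 3.59 CPM on average in the progenitors and at 94.2 ± 4.30 CPM in basophils (5.05 ± 0.45 against DN-GMPs, limma adjusted p = 4.05e-06). Rbl2, a pocket protein that holds E2F targets silent in resting cells, rose from 45.6 ± 13.4 to 279 ± 28.4 CPM. The largest called falls in basophils against DN-GMPs were those of Skp2 (54.2 ± 13.2 to 17.4 ± 6.92 CPM) and E2f6 (70.8 ± 18.7 to 28.2 ± 5.57 CPM). Against Pre-BMPs they were those of Tfdp2 (-1.48 ± 0.38, limma adjusted p = 0.0120) and E2f6 (-0.78 ± 0.24, limma adjusted p = 0.0276). Cdkn1b, an inhibitor of the kinases that drive S phase entry, rose between Pro-BMPs and Pre-BMPs from 8.89 ± 1.65 to 26.7 ± 2.62 CPM. Tfdp1, the E2F partner, dipped as Rrm2 did, with 331 ± 34.9 CPM in Pro-BMPs, 195 ± 24.6 in Pre-BMPs, then 336 ± 23.0 in basophils. In Pre-BMPs against DN-GMPs the largest falls were those of Ccne2, cyclin E2 (-1.06 ± 0.24, limma adjusted p = 0.00955), and Cdc25a, a phosphatase that activates cyclin-dependent kinases (-0.97 ± 0.20, limma adjusted p = 0.00465).

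Genes of mitosis did not follow the replication genes. Their summed level was 3599 ± 273 CPM in DN-GMPs, 4067 ± 235 in Pro-BMPs, 5181 ± 487 in Pre-BMPs, then 3912 ± 548 in basophils, with the highest mean in Pre-BMPs for 21 of the 26 genes. In Pre-BMPs against DN-GMPs 13 of the 26 were called higher and 0 lower (median change 0.58), beside 12.2% and 9.69% of all genes, where the replication genes had 1 higher and 25 lower. In basophils against Pre-BMPs 9 were lower and 0 higher (median -0.50), beside 16.5% and 13.9% of all genes. In basophils against DN-GMPs 7 were higher and 4 lower (median 0.03), counts near the 23.2% of all genes called in either direction. Cenpa, the centromere histone, had 127 ± 22.2 CPM in DN-GMPs, 335 ± 37.1 in Pre-BMPs and 200 ± 45.4 in basophils. Ccnb1, the mitotic cyclin B1, fell from 257 ± 34.8 CPM in Pre-BMPs to 132 ± 33.0 in basophils. Aurkb, a mitotic kinase, was lower in basophils than in DN-GMPs at 120 ± 10.8 against 183 ± 10.9 CPM. Over the 26 genes none had a mean that fell at each of the 3 steps, as 31 of the 48 replication genes had. The difference between the lists was not tested.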

How the data were processed

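RNA was measured in 12 libraries, prepared per the labels' protocols with the SmartSeq v4 kit (Takara) followed by Nextera XT. The authors deposited log2 values: 2 raised to each value is a whole read number plus 0.5, per 1000000 reads of a scaled library size (100% of values within 0.001 of a whole number). Trimmomatic, STAR, HTSeq and deepTools are named, without versions, per the submitters' processing notes. The sources used here do not give the genome build or annotation. The 3 rows of unassigned reads were left out.

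limma 3.58.1 (R 4.3.3) was fitted on the deposited log2 values of all 14560 genes, with 1 mean per population, variances moderated with a trend and two-sided tests, after a check on simulated data. A gene was called at a Benjamini-Hochberg adjusted p below 0.05. CPM values leave out the added 0.5 read. Alternatives were 5 added reads, quantile normalization, scaling to the sum of listed genes, voom weights, a minimum mean of 1 CPM, the 2 populations fitted alone, a replicate block and leaving out each library. In a comparison, members were named when called or when the log2 change reached 0.5 in size, and each further list gave at most its 2 largest called changes in each direction. Genes singled out beyond that were chosen after their values were seen. The members and lists were chosen with earlier results of these data known. Exon overlaps and lengths are from GENCODE M21, with all annotated exons of a gene merged, and promoters are from RefSeq (GRCm38.p6).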

Additional observations from a re-analysis of the deposited data

How the results depend on the processing

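Over 115 changes of single genes, 1331 of 1495 alternative values kept direction and side of the threshold, 142 lost the call, 21 gained one and 1 reversed: Rfc2 in basophils against Pre-BMPs, at -0.034 under quantile normalization. Losses given gene by gene above are mainly those from leaving out a library, and some of these calls were also lost under other alternatives. For the count of genes called, voom weights gave 1 in Pro-BMPs against DN-GMPs (0 as reported), and scaling to listed genes gave 28 in basophils against Pre-BMPs (16 as reported). With voom weights the share of all called genes that were higher in Pro-BMPs than in DN-GMPs was 59.4%, against 78.9%. The causes were not tested. Leaving out each library gave 0 to 1 called gene in Pro-BMPs against DN-GMPs, 4 to 7 in Pre-BMPs against Pro-BMPs, 11 to 18 in basophils against Pre-BMPs, 13 to 22 in Pre-BMPs against DN-GMPs, 36 to 39 in basophils against DN-GMPs and 35 to 40 over the 4 populations. With the replicate number as a block, 0, 6, 17, 25, 40 and 37 genes were called in the same order. Deviations of same-numbered libraries correlated at -0.12 to 0.13 (2 of 18 pairs above 0.1). Between Pro-BMPs and Pre-BMPs these values were 0.049, 0.11 and 0.13, and differently numbered libraries gave -0.11 to 0.0015. Between DN-GMPs and Pro-BMPs the same-numbered values were 0.002, -0.11 and -0.074. Such weak correlations cannot decide whether the numbers pair the samples.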
